A study of Homo sapiens with 22 samples.

Results

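A set of 10 genes of the endothelial cell surface and nucleus were followed through the blood culture: KDR, FLT1, TEK, TIE1, APLNR, ENG, CDH5, PECAM1, ESAM and SOX17. They were taken by gene name from the deposited gene table, which held 60240 genes, and all 10 were found there. The RNA, selected for polyA tails, came from progenitors of blood grown out of the established human embryonic stem cell line H1. The UT arm had no doxycycline and was sampled from day 10 to day 20 of the culture at steps of 2 days. The DOX arm received doxycycline, which turns on an added copy of MYC, a transcription factor of growth, and was sampled on days 12, 14, 16, 18 and 20. Each of the 11 groups had 2 libraries, 22 in all, and every library carried the same line name and the same batch label. No library had doxycycline without ectopic MYC, so drug and gene cannot be told apart, and the first day of treatment is not given in the sources used here. Whether the replicates came from separate cultures is not stated; p-values then reflect library-to-library spread alone, and that spread may be technical.

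Blood progenitors arise in the embryo and in stem cell cultures from a specialised endothelium, the haemogenic endothelium, whose cells round up, lose their vessel junctions and switch on blood genes. The genes described here are the receptors, junction proteins and regulators that mark the endothelial side of that passage. Several of them, PECAM1 and ESAM among them, are also made by megakaryocytes and platelets, so their RNA does not by itself mark an endothelial cell. The labels name the cells as blood progenitors and do not say that any were endothelial.

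In UT, all 9 members with enough counts for a test were called lower on day 20 than on day 10, by 1.86-fold (FLT1) to 230-fold (TEK by the fit), where 34.2% of all genes tested were called lower. In DOX, 8 of the 9 were lower on day 20 than on day 12, where 29.7% of all genes were. Averaged over days 12 to 20, 7 members were higher in DOX than in UT and 1 (FLT1) was lower, where 29.8% and 23% of all genes were. On day 12 no member was called, while KDR, APLNR, ESAM and CDH5 were 4.58-fold, 16.6-fold, 4.91-fold and 8.62-fold higher in DOX on day 20. For these 4 genes the widening of the difference from day 12 to day 20 was itself called, where 8.96% of all genes were called.

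Totals ran from 24730502 to 53508548 counts per library, and 9 of the 10 members passed the filter on low counts; SOX17 did not. Levels are given in CPM, counts scaled to a common library size after the TMM correction for composition. Calls are at an adjusted p under 0.05 in edgeR's quasi-likelihood test over all 20115 genes tested. MYC, the induced gene, was higher in DOX when days were averaged (log2 fold change 0.83, SE 0.11, adjusted p = 4.3e-06), and its endogenous and ectopic transcripts were not separated. On day 12 MYC stood at 242 and 232 CPM in DOX against 126 and 121 in UT. On day 20 the arms overlapped, at 49.6 and 28.9 CPM in DOX against 34.6 and 28.7 in UT. Of 6 markers of the labelled cell type, blood progenitors, 3 rose and 3 fell in the UT course. SPN (CD43, an early surface protein of these cells) had group means of 447 to 771 CPM, while in UT CD34 went from 109 CPM on day 10 to 5.05 on day 20 and KIT from 96.3 to 4.66. Counts from mitochondrially encoded genes went from 8.92% of all counts in UT on day 10 to 72.7% on day 20, and from 11.3% in DOX on day 12 to 57.0% on day 20. That share rose over the whole course of each arm, but not at every step. In DOX it was 11.1% on day 14, and the UT libraries of day 14 had 17.5% and 9.95%. From day 16 it was higher in UT than in DOX (54.7% against 20.2% on day 16). Removing the mitochondrially encoded genes before scaling left the same number of members called in each comparison. That number was 8 in the averaged comparison, 9 in the UT course and 8 in the DOX course. The part of the mitochondrial share in the results was not otherwise tested. In bulk RNA, fewer cells of a type and less RNA per cell cannot be told apart.

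The members differed widely in abundance. Per kilobase of exon, UT on day 10 had 35.5 CPM of PECAM1, 30.7 of KDR, 23.6 of ESAM, 12.6 of ENG, 11.1 of TEK and 10.2 of TIE1. CDH5 (VE-cadherin) had 2.15 CPM per kilobase, FLT1 0.797, APLNR 0.453 and SOX17 0.0365. On the same scale UT on day 20 had 9.27 CPM of PECAM1, 4.29 of ENG, 2.29 of TIE1, 1.18 of ESAM and 0.473 of KDR. In both groups CDH5, the defining junction gene of endothelium, stood far below PECAM1 (0.0152 CPM per kilobase in UT on day 20). Other endothelial genes ranged as widely: EGFL7, a secreted vessel factor that is also a gene of early blood cells, had group means of 58.9 to 118 CPM, while VWF, the clotting factor of endothelium and megakaryocytes, had 0.297 to 5.74 CPM.

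All 9 tested members were lower in UT on day 20 than on day 10, though they did not fall together at every step. Promoters in the RefSeq sequence table were searched for the binding letters of factor families of blood and endothelium. The search covered 5 of the 10 members (KDR, TEK, TIE1, ENG and FLT1), and its counts do not stand for the whole set. The ETS motif AGGAAG, the letters of a family that includes FLI1 and ERG, was found on either strand in 3 of the 5 windows of 250 bases before the gene start: 1 match in TIE1, 2 in ENG and 2 in FLT1. Of 35116 promoter windows of that length in the table, 28.7% held it. The GATA motif AGATAA (in 9.17% of all windows), the E-box CACGTG bound by MYC (6.34%) and the RUNX motif TGTGGT (10.98%) were in none of the 5, so no matches of different motifs overlapped. The sequences below, from RefSeq on GRCh38.p14, stop before the first base that GENCODE 29 places in the gene, and the ENG and FLT1 windows are shorter for that reason. They show the pair of VEGF receptors side by side, KDR without a match and FLT1 with 2, and the single matches of TIE1 and ENG; the other ENG match lay in the part not printed. Each is written 5′ to 3′ on the strand of its gene, with capitals on the ETS letters (AGGAAG, or CTTCCT where the motif is on the opposite strand). KDR is chr4:55125596-55125845 (minus strand), FLT1 chr13:28495146-28495378 (minus), TIE1 chr1:43300732-43300981 (plus) and ENG chr9:127854757-127854908 (minus).
KDR: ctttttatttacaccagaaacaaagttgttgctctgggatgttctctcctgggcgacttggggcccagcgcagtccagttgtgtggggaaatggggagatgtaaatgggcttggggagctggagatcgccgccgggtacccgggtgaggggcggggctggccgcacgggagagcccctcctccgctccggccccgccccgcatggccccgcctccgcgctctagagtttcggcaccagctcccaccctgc
FLT1: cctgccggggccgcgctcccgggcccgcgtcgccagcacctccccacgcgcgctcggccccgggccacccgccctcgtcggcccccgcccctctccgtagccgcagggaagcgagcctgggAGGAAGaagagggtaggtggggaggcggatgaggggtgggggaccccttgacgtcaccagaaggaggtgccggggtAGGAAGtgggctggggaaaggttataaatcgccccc
TIE1: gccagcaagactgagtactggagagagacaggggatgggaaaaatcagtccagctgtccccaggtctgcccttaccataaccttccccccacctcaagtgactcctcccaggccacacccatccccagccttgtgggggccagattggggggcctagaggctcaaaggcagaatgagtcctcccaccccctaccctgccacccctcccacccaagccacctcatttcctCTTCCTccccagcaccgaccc
ENG: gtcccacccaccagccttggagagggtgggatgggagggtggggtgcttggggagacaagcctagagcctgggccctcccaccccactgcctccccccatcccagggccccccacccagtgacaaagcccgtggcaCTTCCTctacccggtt

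KDR (ENSG00000128052.10, chromosome 4, 55078259 to 55125595, minus strand of GRCh38) encodes VEGF receptor 2, the main signalling receptor for VEGF-A in endothelium and an early marker of the mesoderm that gives rise to blood and vessels. In UT it stood at 220.4 and 183 CPM on day 10, 407 and 373 on day 12, 128 and 117 on day 14, 28.2 and 25.4 on day 16, 8.01 and 15.5 on day 18, and 4.85 and 1.37 on day 20. In DOX it stood at 206 and 209.6 CPM on day 12, 87.5 and 109 on day 14, 28.4 and 35.0 on day 16, 27.2 and 32.9 on day 18, and 17.1 and 10.5 on day 20. UT on day 12 was above every other group. Both UT libraries lay above both DOX libraries on days 12 and 14 and below them on days 16, 18 and 20. DOX was at 0.533 of UT on day 12 without a call (log2 fold change -0.91, SE 0.27, adjusted p = 0.084) and 4.58-fold above UT on day 20 (2.20, SE 0.40, adjusted p = 0.00035). The size on day 20 rests on the UT libraries, with a log2 fold change of 3.35 without UT day 20 replicate 1 and 1.52 without replicate 2, called in both. Without UT day 18 replicate 2, the day 18 value of 1.33 became 1.92. KDR rose in UT from day 10 to day 12 (log2 fold change 0.95, adjusted p = 0.036) and fell at each of the 4 later UT steps.

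FLT1 (ENSG00000102755.12, chromosome 13, 28300344 to 28495145, minus strand) encodes VEGF receptor 1, which binds VEGF-A tightly, signals weakly and in its soluble form holds VEGF away from KDR; monocytes also make it. It was the only member called lower in DOX in the averaged comparison. UT libraries had 11.03 and 9.01 CPM on day 10, 9.20 and 8.83 on day 12, 5.46 and 4.12 on day 14, 5.06 and 14.3 on day 16, 4.90 and 4.54 on day 18, and 7.52 and 3.34 on day 20. DOX libraries had 6.87 and 8.10 CPM on day 12, 3.83 and 4.15 on day 14, 2.79 and 2.41 on day 16, 4.59 and 3.69 on day 18, and 2.61 and 3.52 on day 20. The highest value of all 22 libraries was in UT day 16 replicate 2, while its partner was within the range of the neighbouring days. Over the days its mean log2 fold change was -0.69 (SE 0.17, adjusted p = 0.002), and -0.49 (adjusted p = 0.0056) without that library. With library sizes alone as the scaling it was -0.16 and not called (adjusted p = 0.44), where the median of all genes was 0.60 in place of 0.08.

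The single day on which FLT1 differed between the arms was day 16 (log2 fold change -1.90, SE 0.37, adjusted p = 0.00055). Without UT day 16 replicate 2 it was -0.94, at the threshold and not called (adjusted p = 0.05). The rise of FLT1 in UT from day 14 to day 16 (log2 fold change 1.02, adjusted p = 0.041) was 0.069 (adjusted p = 0.93) without the same library. That library stood apart in the summed level of 10 markers of fibroblasts and mural cells. The sum was 557 CPM against 21.2 CPM in its replicate and 18.2 to 49.4 CPM in the other 20 libraries. COL3A1, COL1A1 and COL1A2, collagens of connective tissue, made up most of it, with UT day 16 means of 148, 66.4 and 42.8 CPM. TAGLN had 3.48 CPM against 1.75 in UT on day 14, and PDGFRB 3.03 against 2.88. The part of fibroblasts and mural cells in the FLT1 value was not tested. Monocyte markers, a further source of FLT1, had summed levels of 139 and 217 CPM in the UT day 16 libraries and 97.1 to 106 CPM in DOX on day 16.

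**Figure D1:**
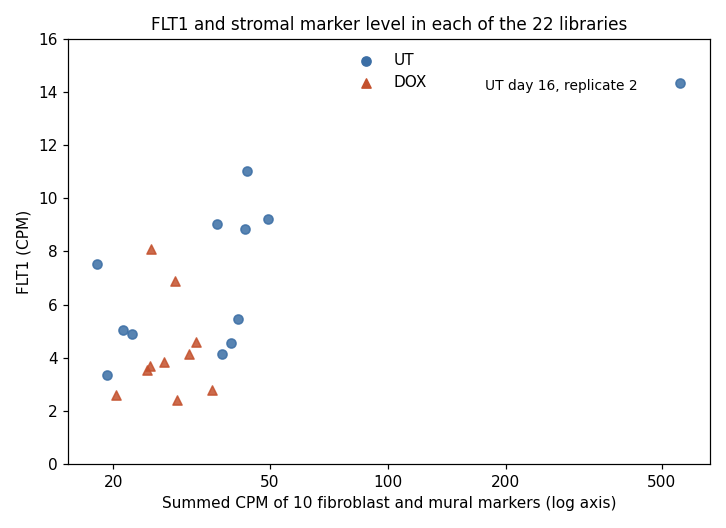
FLT1 level (CPM) against the summed CPM of 10 fibroblast and mural cell markers (log axis) in each of the 22 libraries, circles for UT and triangles for DOX. UT day 16 replicate 2 lies alone at the upper right, with 14.3 CPM of FLT1 and a marker sum of 557 CPM.

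TEK (ENSG00000120156.22, chromosome 9, 27109141 to 27230175, plus strand) encodes TIE2, the angiopoietin receptor of endothelium, which is also carried by early haematopoietic stem cells. It had 54 and 52.2 CPM in UT on day 10, 49.5 and 57.8 on day 12, 6.10 and 7.48 on day 14, 2.53 and 1.80 on day 16, 0 and 0.969 on day 18, and 0 and 0.428 on day 20. DOX had 39.3 and 47.1 CPM on day 12, 10.8 and 13.8 on day 14, 3.65 and 5.21 on day 16, 3.27 and 4.62 on day 18, and 0.265 and 0.630 on day 20. TEK had the largest fitted fall of the 9 genes in both arms. UT libraries lay above DOX on day 12, DOX libraries lay above UT on days 14, 16 and 18, and the arms overlapped on day 20. Its largest difference was on day 18 (log2 fold change 2.80, SE 0.61, adjusted p = 5e-04), where 270 counts in DOX stood against 19 in UT. By counts this is a ratio of 6.92 with a 95% interval of 4.35 to 11.7, which covers counting error only. On day 20 there were 18 counts against 5, a ratio of 1.88 (0.674 to 6.49), and no call was made (adjusted p = 0.57). The averaged value of 1.06 (SE 0.28, adjusted p = 0.0022) became 2.60 without UT day 18 replicate 2 and 2.34 without UT day 20 replicate 2, since only a library at 0 was then left in the group. For the same reason the day 18 value was 10.44 without UT day 18 replicate 2 and 2.04 without replicate 1. The call of day 16 (1.04, adjusted p = 0.041) was lost in several alternatives, such as limma-voom (adjusted p = 0.091) and without UT day 16 replicate 2 (0.82, adjusted p = 0.23) or DOX day 16 replicate 2 (0.78, adjusted p = 0.23).

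TIE1 (ENSG00000066056.14, chromosome 1, 43300993 to 43323108, plus strand) encodes the partner receptor of TEK on the endothelial surface, which modulates its signalling and has no angiopoietin of its own. It had 71.9 and 64.9 CPM in UT on day 10, 39.1 and 39.7 on day 12, 25.9 and 23.3 on day 14, 18.4 and 21.2 on day 16, 17.7 and 18.2 on day 18, and 15.0 and 15.6 on day 20. In DOX it had 41.7 and 46.2 CPM on day 12, 28.4 and 29 on day 14, 19.2 and 18.0 on day 16, 15.9 and 13.3 on day 18, and 14.2 and 15.3 on day 20. DOX libraries lay above UT on days 12 and 14 and below UT on day 18, and no day gave a call. Over the days its mean log2 fold change was -0.015 with a 95% interval of -0.14 to 0.11 (adjusted p = 0.89); with library sizes alone it was 0.52 and called (adjusted p = 5.3e-07), where the median of all genes was 0.60. TIE1 was the only member called lower in UT between day 10 and day 12 (log2 fold change -0.80, SE 0.12, adjusted p = 0.00025). On day 18 its value of -0.30 missed the threshold (adjusted p = 0.078), was called lower with DESeq2 size factors (-0.35, adjusted p = 0.04) and higher with library sizes alone (0.62, adjusted p = 0.0013).

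APLNR (ENSG00000134817.11, chromosome 11, 57233577 to 57237314, minus strand) encodes the receptor for apelin and ELABELA peptides, a marker of early mesoderm and of venous and angiogenic endothelium. UT had 1.69 and 1.70 CPM on day 10, 8.43 and 10.6 on day 12, 8.07 and 7.56 on day 14, 2.39 and 2.99 on day 16, 1.87 and 1.38 on day 18, and 0.692 and 0.171 on day 20. DOX had 9.02 and 11.4 CPM on day 12, 12.0 and 12.3 on day 14, 10.4 and 12.5 on day 16, 13.0 and 19.4 on day 18, and 7.69 and 6.14 on day 20. It was the only member with its highest group mean in DOX (day 18), and from day 14 every DOX library lay above every UT library of the same day. In UT it rose from day 10 to day 12 (log2 fold change 2.49, SE 0.25, adjusted p = 4.8e-06) and then fell. In DOX it was the only tested member without a call between day 12 and day 20 (log2 fold change -0.56, SE 0.25, adjusted p = 0.064); without UT day 20 replicate 1, for example, that value was -0.59 and called (adjusted p = 0.03). The difference between the arms was 4.24-fold on day 16, 10.2-fold on day 18 (log2 fold change 3.35, SE 0.30, adjusted p = 1.7e-07) and 16.6-fold on day 20 (4.05, SE 0.50, adjusted p = 1.3e-06). On day 20 this compared 291 counts with 9, a ratio of 16.9 (95% interval 8.79 to 37.4). Its log2 value was 5.33 without UT day 20 replicate 1 and 3.33 without replicate 2, called in both.

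ENG (ENSG00000106991.14, chromosome 9, 127815012 to 127854756, minus strand) encodes endoglin, a co-receptor for BMP9 and TGF-beta on endothelium and on blood stem cells. UT libraries held 54.6 and 44.8 CPM on day 10, 53.3 and 54.1 on day 12, 25.7 and 22.8 on day 14, 17.8 and 22.8 on day 16, 15.9 and 13.0 on day 18, and 19.0 and 14.8 on day 20. DOX libraries held 47.3 and 48.0 CPM on day 12, 32.8 and 32.6 on day 14, 19.3 and 19.9 on day 16, 23.4 and 27.7 on day 18, and 18.7 and 16.5 on day 20. UT lay above DOX on day 12 and below it on days 14 and 18, and the arms overlapped on days 16 and 20. ENG was higher in DOX on day 18 (log2 fold change 0.84, SE 0.16, adjusted p = 0.00054) and, by a smaller margin, on day 14 (0.43, SE 0.15, adjusted p = 0.041). Scaling by DESeq2 size factors ended the day 14 call (adjusted p = 0.061), as did leaving out any 1 of its 4 libraries (log2 fold changes of 0.36 to 0.53, adjusted p from 0.056 to 0.22). The averaged difference was 1.17-fold (0.22, SE 0.070, adjusted p = 0.012). ENG shares 313 exon bases with the antisense gene AL162586.1, and no strand setting for the counting is given in the sources used here, so reads from the 2 cannot be told apart. Antisense genes also overlap KDR and ESAM, with no shared exon bases.

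CDH5 (ENSG00000179776.19, chromosome 16, 66366622 to 66404786, plus strand) encodes VE-cadherin, the adhesion protein of endothelial junctions, and is among the most specific endothelial genes. It had 13.9 and 12.3 CPM in UT on day 10, 9.90 and 8.52 on day 12, 2.24 and 2.12 on day 14, 1.24 and 0.918 on day 16, 0.389 and 0.510 on day 18, and 0.0989 and 0.0855 on day 20. In DOX it had 6.31 and 6.95 CPM on day 12, 1.43 and 1.56 on day 14, 1.13 and 1.196 on day 16, 0.933 and 0.877 on day 18, and 0.884 and 0.735 on day 20. DOX libraries lay below UT on days 12 and 14 and above UT on days 18 and 20. In DOX the step from day 12 to day 14 was called (log2 fold change -2.15, SE 0.22, adjusted p = 1.8e-05) and none of the 3 later steps was. In UT 3 steps were called, up to day 18, and the day 20 libraries together held 2 counts. Against the 34 counts of DOX on that day, the ratio was 8.90 with a 95% interval of 2.28 to 76.4. The fitted difference on day 20 was 3.11 (SE 0.69, adjusted p = 0.00048), and was not called when only the day 20 groups were fitted (3.01, adjusted p = 0.16). The day 18 call (0.97, adjusted p = 0.041) rested on 60 counts against 15 and was lost in several alternatives, among them limma-voom (0.92, adjusted p = 0.19) and without UT day 18 replicate 1 (0.83, adjusted p = 0.17).

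PECAM1 (ENSG00000261371.6, chromosome 17, 64319415 to 64413776, minus strand) encodes CD31, an adhesion protein of endothelium, platelets and leukocytes, and was the most abundant member. UT had 277 and 275 CPM on day 10, 374 and 401 on day 12, 168 and 149 on day 14, 76.6 and 75.1 on day 16, 62.3 and 53.0 on day 18, and 76.3 and 67.6 on day 20. DOX had 308 and 338 CPM on day 12, 225 and 266 on day 14, 201 and 224 on day 16, 129.6 and 162 on day 18, and 88.4 and 72.4 on day 20. UT lay above DOX on day 12 and below it on days 14, 16 and 18, and the arms overlapped on day 20. Its difference was 1.55-fold on day 14, 2.80-fold on day 16 (log2 fold change 1.49, SE 0.14, adjusted p = 3.6e-07) and 2.54-fold on day 18 (1.34, SE 0.14, adjusted p = 1.3e-06). By day 20 it was 0.16 (SE 0.14, adjusted p = 0.44). The last called step in UT was from day 14 to day 16, and in DOX both steps after day 16 were called lower.

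ESAM (ENSG00000149564.12, chromosome 11, 124752583 to 124762290, minus strand) encodes an adhesion protein of endothelial tight junctions and platelets that also marks blood stem cells. Its UT levels were 71.8 and 66.1 CPM on day 10, 89.9 and 91.0 on day 12, 45.0 and 44.4 on day 14, 21.0 and 16.6 on day 16, 7.78 and 6.48 on day 18, and 2.77 and 4.10 on day 20. Its DOX levels were 73.3 and 79.3 CPM on day 12, 56.7 and 59.6 on day 14, 46.1 and 56.2 on day 16, 38.3 and 42.8 on day 18, and 15.4 and 18.7 on day 20. Day 12 UT libraries lay above DOX, and every DOX library of the later days lay above both UT libraries of its day. The difference was 2.72-fold on day 16, 5.73-fold on day 18 (log2 fold change 2.52, SE 0.17, adjusted p = 5.3e-09) and 4.91-fold on day 20 (2.30, SE 0.20, adjusted p = 2.4e-07). Means of ESAM in DOX were lower at each later day, but 1 step alone was called, from day 18 to day 20 (-1.25, SE 0.15, adjusted p = 4.6e-05); in UT each of the 4 steps after day 12 was called lower.

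SOX17 (ENSG00000164736.6, chromosome 8, 54457935 to 54460888, plus strand), a transcription factor of definitive endoderm and of arterial and haemogenic endothelium, was barely detected. Its counts came to 29 over the 12 UT libraries, of which 6 were at 0, and to 26 over the 10 DOX libraries, of which 3 were at 0. No library held more than 9 counts, and both arms had none on day 20. A floor of 3 counts in a library is 0.0448 CPM in UT day 10 replicate 1, against a level there of 0.0746 CPM, so a difference in SOX17 was not detectable at this depth.

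**Figure D2:**
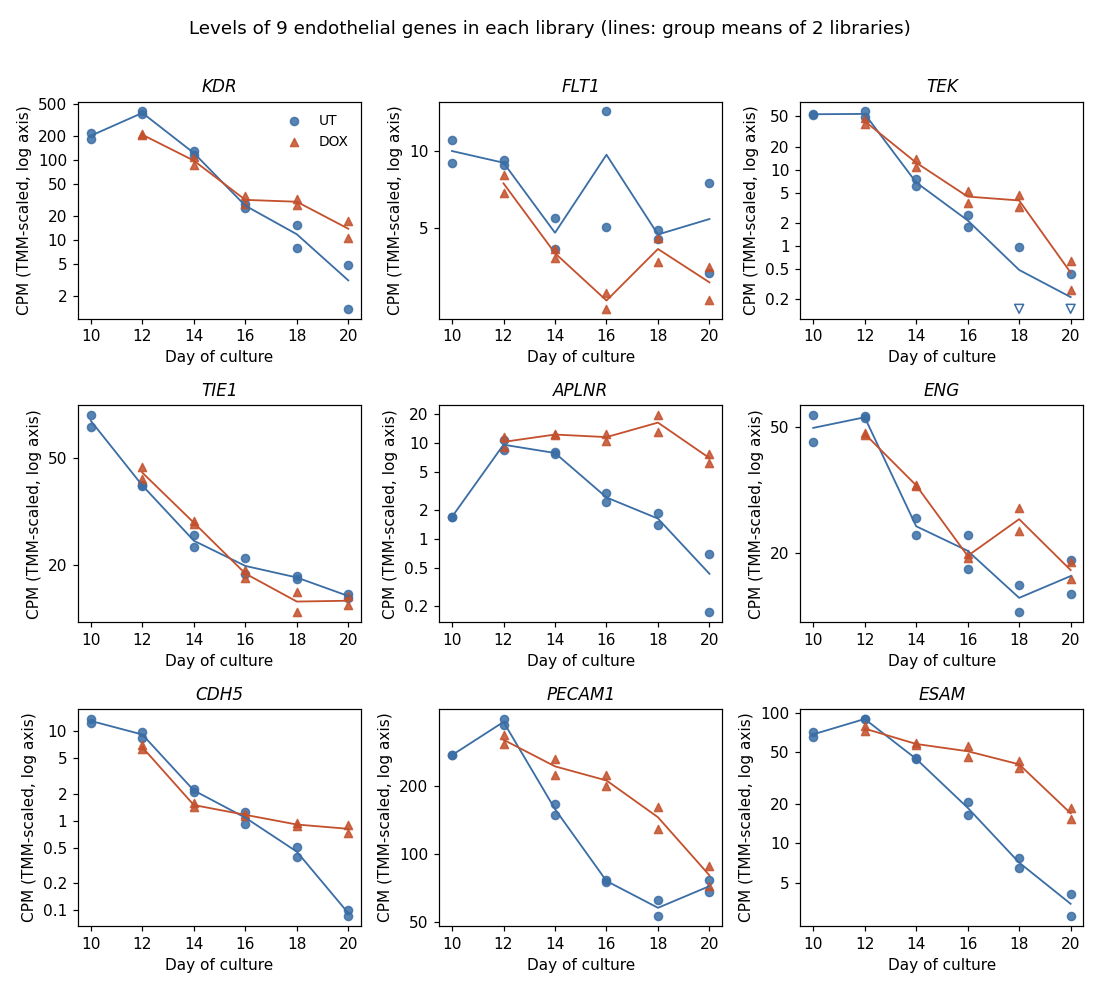
Level of each tested member in every library by day, in TMM-scaled CPM on a log axis, circles for UT and triangles for DOX, with lines through the means of 2 libraries; open triangles pointing down mark the 2 UT libraries with 0 counts of TEK. Each line ends lower than it starts, though not every step runs down. TIE1 runs together in both arms, and APLNR stays between 6.14 and 19.4 CPM in DOX while UT drops to 0.171 CPM.

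Ordered by group mean, most members shared a common arrangement. UT on day 12 was the highest group for KDR, TEK, PECAM1, ESAM and ENG, and UT on day 10 for CDH5, TIE1 and FLT1. UT on day 20 was the lowest for KDR, TEK, CDH5, APLNR and ESAM. Neighbours in this order often could not be separated. For KDR, the libraries of DOX on day 12 overlapped those of UT on day 10, those of DOX on day 18 overlapped DOX and UT on day 16, and those of DOX on day 20 overlapped UT on day 18. For ENG, UT on days 12 and 10 and DOX on day 12 overlapped in sequence at the top, and DOX on day 20, UT on day 20 and UT on day 18 at the bottom. ESAM had the clearest order, in which only UT on day 16 and DOX on day 20 overlapped as neighbours. Among the tested members FLT1 had the least clear one, with a gap between neighbours only below UT on day 12 and above DOX on day 20.

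Averaged over days 12 to 20, 8 of the 9 tested members were called, 7 higher and 1 lower in DOX, where 52.9% of all genes were called in either direction. The median log2 fold change of the members was 0.63 against 0.08 for all genes. APLNR (4.12-fold; log2 fold change 2.04, SE 0.15, adjusted p = 6e-10) and ESAM (2.43-fold; 1.28, SE 0.073, adjusted p = 9.8e-11) had the largest averaged excess. TEK followed at 2.08-fold, PECAM1 at 1.59-fold (0.67, SE 0.063, adjusted p = 6.1e-08), CDH5 at 1.55-fold (0.63, SE 0.17, adjusted p = 0.0021) and KDR at 1.42-fold (0.51, SE 0.14, adjusted p = 0.0041). All tested members but APLNR (above 0 on each day) and FLT1 (below 0 on each day) had fold changes of both signs among the days. CDH5 and KDR had lower means in DOX than in UT on days 12 and 14. Their largest excess was on day 20, where UT held 2 counts of CDH5 and 65 of KDR. The averaged values of CDH5 and KDR thus lean on that day. Over days 12 and 14 alone, an alternative added after seeing the data, 2 genes were called lower in DOX (KDR -0.61, adjusted p = 0.025; CDH5 -0.51, adjusted p = 0.021) and the other 7 were not called, from -0.27 (FLT1) to 0.37 (APLNR).

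The number of members called differed between days. No member was called on day 12, when 3.11% of all genes were, although 2 (KDR and CDH5, both lower in DOX) had an unadjusted p under 0.05; limma-voom called 2 (1530 of all genes), DESeq2 called 1 (1408) and a fit of only the day 12 groups called 6 (4742), against 625 genes in the fit of all groups. On day 14, 2 were higher (ENG and PECAM1), against 15.3% of all genes higher and 11.7% lower. Day 16 had 4 higher (PECAM1, APLNR, ESAM and TEK) and 1 lower (FLT1), against 21.2% and 18.7% of all genes. Day 18 had 7 higher and none lower, against 19.8% of all genes higher, with TIE1 and FLT1 the exceptions. Day 20 had 4 higher, against 15.9% of all genes higher, and the 5 without a call (TEK, PECAM1, TIE1, ENG and FLT1) had log2 fold changes of -0.82 to 0.92. The median of the members was -0.26 on day 12, 0.38 on day 14, then 0.24 (day 16), 1.33 (day 18) and 0.92 (day 20), while that of all genes stayed between -0.015 and 0.08. With library sizes alone, the member calls on days 16 and 20 became 9 and 7, while those over all genes went from 8028 to 11279 and from 5584 to 11094.

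**Figure D3:**
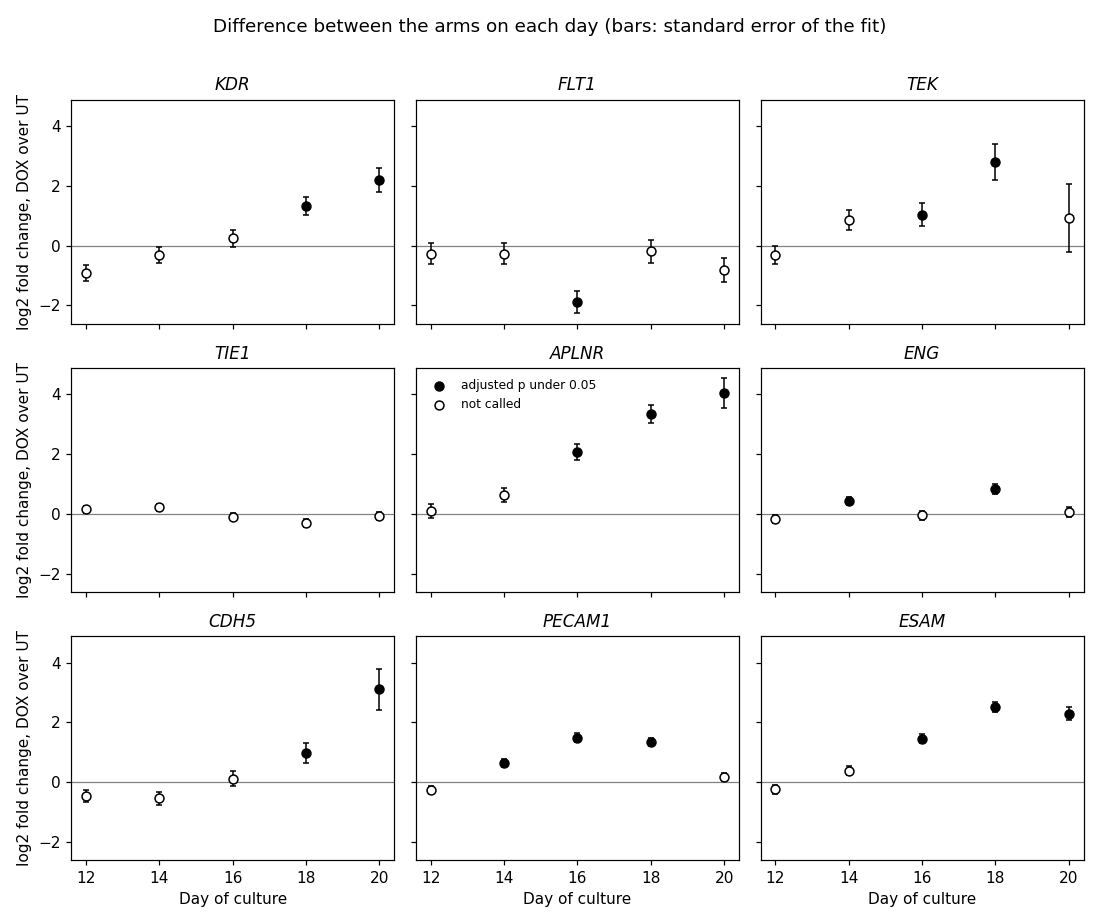
Log2 fold change of DOX over UT on each day for the 9 tested members, with the standard error of the fit as bars and filled points for calls at an adjusted p under 0.05. APLNR goes from 0.097 on day 12 to 4.05 on day 20, KDR and CDH5 start below 0 and end above it, PECAM1 peaks at 1.49 on day 16, and TIE1 stays between -0.30 and 0.22.

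Growth of the difference between the arms from day 12 to day 20 was called for 4 members, all higher, where 5.62% of all genes were called higher. It was 3.96 for APLNR (SE 0.56, adjusted p = 4.2e-05), 3.58 for CDH5 (SE 0.72, adjusted p = 0.00056), 3.10 for KDR (SE 0.48, adjusted p = 0.00034) and 2.54 for ESAM (SE 0.25, adjusted p = 2.4e-06), on the log2 scale. Values for APLNR were 5.23 and 3.22 without UT day 20 replicate 1 and 2, and for KDR 4.25 and 2.42. PECAM1 (0.42, SE 0.20, adjusted p = 0.2), ENG (0.24, SE 0.22, adjusted p = 0.56), TIE1 (-0.22, SE 0.18, adjusted p = 0.5) and FLT1 (-0.55, SE 0.54, adjusted p = 0.59) were not called. TEK was at 1.23 with an SE of 1.2 and was not called either (adjusted p = 0.55). A test of any change over the 5 days called 7 members, where 31.4% of all genes were called; it added PECAM1, ENG and TEK, and left out TIE1 (adjusted p = 0.12) and FLT1 (adjusted p = 0.06). These comparisons share libraries with the single days, so they are not separate evidence.

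Within UT, calls in either direction over the whole course came to 62.3% of all genes, and all 9 tested members were among the lower ones. TEK (log2 fold change -7.84, SE 1.0), CDH5 (-7.11, SE 0.67) and KDR (-6.06, SE 0.39) fell most, which is 230-fold, 138-fold and 66.7-fold by the fit. The CDH5 ratio compares 1567 counts on day 10 with 2 on day 20, with a 95% interval of 39.7 to 1188 for counting error. ESAM fell 19.9-fold, TIE1 4.46-fold, APLNR 4.05-fold, PECAM1 3.83-fold and ENG 2.95-fold. FLT1 fell 1.86-fold (-0.90, SE 0.38, adjusted p = 0.049), and that call was lost in many alternatives; it was -0.44 (adjusted p = 0.40) without UT day 20 replicate 2 and -1.62 without replicate 1. The day 20 libraries also set the size for KDR (-7.23 and -5.41 without replicate 1 and 2), TEK (-6.98 and, with only a library at 0 left, -14.21) and APLNR (-3.32 and -1.31), all still called. The members' median was -2.16 against -0.24 for all genes.

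Within DOX, 56.4% of all genes were called in either direction between day 12 and day 20. TEK fell 98.7-fold (log2 fold change -6.63, SE 0.60), KDR 15.0-fold, CDH5 8.13-fold, ESAM 4.48-fold, PECAM1 4.02-fold, TIE1 2.98-fold, ENG 2.70-fold and FLT1 2.45-fold (-1.29, SE 0.38, adjusted p = 0.0076). The FLT1 call was lost without DOX day 20 replicate 1 (-1.12, adjusted p = 0.07), and TEK was -7.36 without DOX day 20 replicate 2. The median of the members was -2.01 against -0.08 for all genes. Tests of any difference between days called all 9 members in UT (72.8% of all genes) and all 9 in DOX (59.8%), APLNR included (adjusted p = 0.0054).

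**Figure D4:**
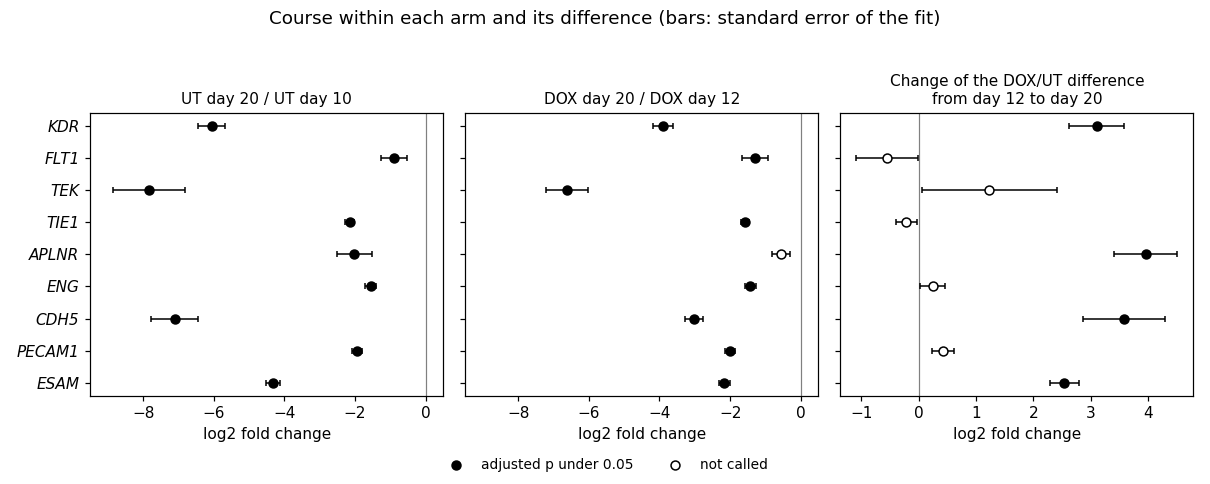
Log2 fold change of each tested member over the UT course, over the DOX course, and of the difference between the arms from day 12 to day 20, with the standard error of the fit as bars and filled points for calls at an adjusted p under 0.05. All points of the UT panel are below 0, APLNR is the open point of the DOX panel, and APLNR, CDH5, KDR and ESAM are the filled points of the last panel.

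Steps between neighbouring days show when the members moved. Of 45 member steps in UT, 21 were lower and 4 were higher, and of 36 in DOX, 16 were lower and none was higher; together 41 were called, where 15.7% of steps were called over all genes. Lower calls made up 8.99% of UT steps and 7.66% of DOX steps over all genes. In UT the step with most lower calls was from day 12 to day 14, with 7 members (17.4% of all genes lower), led by TEK (log2 fold change -2.98, SE 0.32, adjusted p = 3.7e-06), CDH5 (-2.08) and KDR (-1.67). The next step, to day 16, had 6 lower (15.6% of all genes), with KDR in the lead (-2.19, SE 0.28), and FLT1 higher. In DOX, 5 were lower from day 12 to day 14 (2.86% of all genes), 4 to day 16 (8.13%), 1 (PECAM1) to day 18 (10.9%) and 6 to day 20 (8.7%). The last DOX step was steepest for TEK (-3.18, SE 0.61, adjusted p = 0.00063) and took in APLNR (-1.23, SE 0.25, adjusted p = 0.0028).

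The ligands and co-receptors of these receptors had 16 of 18 genes tested. Averaged over the days, 2 were higher and 6 lower in DOX, with a median of -0.17 against 0.08 for all genes; in the UT course 2 were higher and 7 lower, with a median of -1.62 against -0.24. ANGPT1, the activating ligand of TEK, moved with its receptor. It fell in UT from a mean of 126 CPM on day 10 to 5.21 on day 20 (log2 fold change -4.57, adjusted p = 8.3e-12) and was higher in DOX by 1.13 (adjusted p = 1.1e-08). CD38, the surface enzyme that is a partner of PECAM1, went the other way: it rose in UT from 0.223 to 9.20 CPM and was lower in DOX (-1.26, adjusted p = 6e-05).

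Among 21 tested of 22 further endothelial genes, 6 were higher and 3 lower in DOX in the averaged comparison (median -0.053), and 1 rose and 11 fell in the UT course (median -2.30). VWF was higher in DOX by 1.48 (adjusted p = 1.5e-05; 2.82 without UT day 20 replicate 1), and over days 12 and 14 alone it was -0.23 and not called. ICAM2, an adhesion protein of endothelium and platelets, was higher in DOX by 1.00 (adjusted p = 3.6e-07) and fell in UT from 30.4 to 1.98 CPM. S1PR1, the receptor for the lipid S1P, was lower in DOX (log2 fold change -1.16, adjusted p = 8.3e-07), as was ECSCR, an endothelial surface protein (-1.21, adjusted p = 1.7e-06). THBD, the anticoagulant thrombomodulin, fell by 4.28 on the log2 scale in UT (adjusted p = 2.7e-09). Genes of this list were thus called in both directions between the arms. For comparison with this and the other lists, 29.8% of all genes tested were higher and 23% lower in DOX on average. In the UT course 34.2% were lower, and 5651 of the 20115 genes rose. The median over all genes was 0.08 in the averaged comparison and -0.24 in the UT course. Counts near these shares are not particular to a list.

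Of 12 arterial and Notch genes, all tested, 3 were higher and 2 lower in DOX on average (median -0.019), and in the UT course 2 rose and 8 fell (median -1.40). The arterial connexins GJA4 and GJA5 were higher in DOX, by 1.26 (adjusted p = 0.00013) and 1.46 (adjusted p = 1.4e-05); without UT day 18 replicate 2 these became 3.14 and 2.55. GJA4 fell in UT from 64.1 CPM on day 10 to 0.764 on day 20. NOTCH1, the receptor with the highest level in the list, fell by 1.31 on the log2 scale in UT (adjusted p = 4.2e-06).

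All 14 transcription factors of haemogenic endothelium and early blood were tested, and 3 were higher and 8 lower in DOX on average (median -0.24), with 5 rising and 7 falling in the UT course. FLI1, an ETS factor of endothelium and megakaryocytes, fell in UT from 261 to 50.9 CPM and was higher in DOX by 0.75 (adjusted p = 5.6e-08). TAL1, a blood and endothelial regulator, fell in UT from 331 to 65.5 CPM (adjusted p = 7.6e-09). GFI1, the repressor that shuts endothelial genes during the passage to blood, moved the opposite way: it rose in UT from 9.52 to 67.1 CPM and was lower in DOX (-1.02, adjusted p = 3.7e-09). MYB, a factor of definitive blood progenitors, was lower in DOX as well (-0.96, adjusted p = 6.7e-09). GFI1B, the close relative of GFI1 in the same list, did not share its pattern. It fell in UT from a mean of 99.1 CPM on day 10 to 22.6 on day 20. Its means were 122 CPM in DOX against 173 in UT on day 12, and 71.2 against 18.4 on day 18.

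Partners of ENG in BMP and TGF-beta signalling had 13 of 14 genes tested, of which 4 were higher and 6 lower in DOX on average (median -0.17), and 4 rose and 5 fell in the UT course (median 0.20). ACVRL1 (ALK1), the kinase receptor that works with ENG, was lower in DOX (-1.46, adjusted p = 4.9e-06), as were the co-receptor TGFBR3 (-1.83, adjusted p = 7.9e-09) and the BMP target ID1 (-1.11, adjusted p = 1e-07). The ligand TGFB1 fell in UT from 441 to 64.1 CPM (log2 fold change -2.78, adjusted p = 1e-09). Junction partners of CDH5, ESAM and PECAM1 were 14, all tested, with 8 higher and 2 lower in DOX on average (median 0.41) and 4 rising and 9 falling in the UT course (median -2.04). TJP1, a scaffold of tight junctions, was higher in DOX by 1.64 (adjusted p = 9.8e-08) and fell by 6.13 on the log2 scale in the UT course.

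Averaged over days 12 to 20, megakaryocyte and platelet markers moved with most members, and monocyte markers moved the other way. This did not hold on every day. On day 12 the summed levels of both lists were lower in DOX than in UT. On day 20, 1 of the 7 tested monocyte markers was called lower in DOX (median -0.046). Their change of the difference from day 12 to day 20 had a median of 0.73, with no marker called. The part of such cells in the members' values was not tested. All 8 megakaryocyte and platelet markers fell in the UT course, and 7 were higher in DOX on average (median 1.41); their summed level went from 3016 to 3187 CPM in UT on day 10 to 240 to 252 CPM on day 20, against 587 to 649 CPM in DOX on day 20, and none was at 0 in any group. ITGB3, the platelet integrin chain, was higher in DOX by 1.66 (adjusted p = 3.8e-09). Of 6 erythroid markers, 4 were higher and 2 lower in DOX; KLF1, the erythroid regulator, was higher by 2.08 (adjusted p = 2.9e-11). Summed erythroid levels in UT and DOX on day 20 were 31.6 to 40.0 CPM and 57.4 to 60.4 CPM. Of 7 tested monocyte markers (of 8), 6 were lower in DOX and none was higher, with CSF1R at -0.55 (adjusted p = 0.00012; -0.014 and not called with library sizes alone). Of 10 fibroblast and mural markers, 2 were lower in DOX. Among 6 blood progenitor markers, KIT, the stem cell factor receptor, was higher in DOX (1.67, adjusted p = 5.6e-10) and PTPRC (CD45) lower (-0.52, adjusted p = 3.8e-05; 0.020 and not called with library sizes alone). For CD34, which marks endothelium and blood progenitors alike, the averaged difference was 0.11 (adjusted p = 0.54), or 0.40 and called (adjusted p = 0.0058) without UT day 20 replicate 2. Pluripotency markers had 3 of 6 genes tested, of which 1 was higher in DOX.

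Likeness of pattern is given over the 11 group means of log2 CPM, which share their libraries, scaling and days, and is a description only. The genes most like KDR were IRAG1 (Pearson r 0.99), SLC40A1 (0.98) and JAK2 (0.98), and those like TEK included CALCRL and MYO1D (0.99 each). CDH5 was nearest to MYCN (0.99), THBD (0.98) and BCAM (0.97), PECAM1 to RHBDD1, NHLRC2 and TMEM63B (0.99 each), and ESAM to TC2N, EFHC2 and HBG2 (0.996, 0.995 and 0.995). APLNR was nearest to LIPH (0.98), SEPTIN4 and RABGAP1L (0.95 each), TIE1 to SBNO2 (0.98), NEK6 and ADGRG6 (0.97 each), and ENG to KIAA0232 (0.99), DENND4A and STARD8 (0.98 each). FLT1 had the weakest neighbours, TTPAL and CIB2 (0.92 each) and MYRF (0.91). Between members, r was highest for KDR with TEK (0.96) and lowest for APLNR with FLT1 (-0.29).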

How the data were processed

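Sequencing reads of polyA RNA were processed by the authors with tools that include STAR, Salmon and Trim Galore 0.6.5, with the build hg38, per the submitters' processing notes; for STAR and Salmon no version, and for the counting no annotation, strand setting or filter, is given in the sources used here. What the authors deposited are expected counts, without normalisation; 88.3% of the values were whole and the others were rounded. All 22 columns entered. Positions came from GENCODE 29 on GRCh38 (58020 of 60240 identifiers matched) and promoters from RefSeq on GRCh38.p14.

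The filter was filterByExpr (minimum count 10) in edgeR 4.0.16 and kept 20115 genes. Libraries were scaled by TMM and fitted by edgeR's quasi-likelihood method with 1 coefficient per group over all 22 libraries (11 degrees of freedom left, common BCV 0.184), with Benjamini-Hochberg adjustment over all genes tested. Standard errors come from the fitted group means and dispersions; intervals are 95%. As alternatives, the scaling used DESeq2 size factors or library sizes alone. Others were mitochondrial genes removed, no filter, at least 1 CPM in 4 libraries, limma-voom (limma 3.58.1), DESeq2 1.42.0, only the groups compared, a replicate block, and each library left out, in which case the remaining library is taken to vary as much as other groups do.

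The members, lists, comparisons and alternatives were chosen with earlier results of these data known. Named genes were the members, MYC, from each list up to 3 called genes with the largest change in the averaged comparison, up to 3 in the UT course and the most abundant gene, of which those with enough counts for stable values are printed, and for each member the 3 genes of most similar pattern; some of these genes are not reported here. GFI1B was named in addition, as the close relative of GFI1. Lists were written from textbook knowledge. Software was R 4.3.3 and Python 3.11.15 with pandas 2.3.3, numpy 2.4.6 and matplotlib 3.10.9.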

Additional observations from a re-analysis of the deposited data

Results flagged for a closer look

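The difference between the arms changed between days for 4 members by a test of that change (edgeR quasi-likelihood, adjusted over all genes). From day 12 to day 20 the log2 difference of DOX against UT grew by 3.96 for APLNR (adjusted p = 4.2e-05), 3.58 for CDH5 (adjusted p = 0.00056), 3.10 for KDR (adjusted p = 0.00034) and 2.54 for ESAM (adjusted p = 2.4e-06). In all 4, both DOX libraries lay above both UT libraries on day 20. The CDH5 value rests on 2 UT counts on that day.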

How the results depend on the processing

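Limits first. Each group had 2 libraries. CDH5 and TEK were at a few counts in UT from day 18, and for TEK 1 of the 2 libraries there held them all. With library sizes alone the median of all genes moved from 0.08 to 0.60 in the averaged comparison and from -0.24 to -2.41 in the UT course, and the averaged calls from 6002 higher and 4633 lower to 11581 and 1609 (5518 and 5039 with DESeq2 size factors).

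Members called, then all genes called, are given as main value and alternative. Day 12 (0; 625) gave 1; 940 with no filter, 2; 1530 with limma-voom, 1; 1408 with DESeq2, 1; 950 with the replicate block and 6; 4742 with only the groups compared. Day 14 (2; 5422) gave 1; 5385 with DESeq2 size factors, 1; 4784 with library sizes alone, 4; 5530 with no filter, 4; 6299 with only the groups compared, 5; 7492 with limma-voom, 5; 6056 with the replicate block and 6; 6415 with DESeq2. With library sizes alone, 9 members were called on day 16 (main 5) and 7 on day 20 (main 4) and for the change from day 12 to day 20 (main 4), and all genes called were 11279 on day 16 (main 8028), 11446 on day 18 (main 7203), 11094 on day 20 (main 5584), 9541 for the change from day 12 to day 20 (main 1802) and 12049 for any change over the 5 days (main 6312). DESeq2 gave 2758 genes for the change from day 12 to day 20; only the groups compared gave 1079 for it, 4780 on day 18 and 2035 on day 20. Days 12 and 14 alone gave 2 members and 5039 genes. The cause of these differences was not tested, except that fits of only the groups compared use fewer libraries.

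Without each library in turn, members and all genes called were 8 and 9939 to 10817 in the averaged comparison, 0 to 1 and 56 to 754 on day 12, 1 to 5 and 2824 to 5914 on day 14, 3 to 5 and 5605 to 8572 on day 16, 6 to 7 and 5220 to 7729 on day 18, and 4 to 5 and 3522 to 6067 on day 20. The ranges were 8 to 9 and 10812 to 13024 in the UT course, 7 to 9 and 9129 to 11913 in the DOX course, 4 and 912 to 2372 for the change from day 12 to day 20, 9 and 13520 to 15206 for UT days, 8 to 9 and 10518 to 12772 for DOX days, 7 to 8 and 4699 to 7122 for any change, and 33 to 43 member steps.

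Direction reversed for the following log2 values. TIE1 in the averaged comparison was 0.52 with library sizes alone, 0.013 with no filter, 0.19 over days 12 and 14, and -0.024 to 0.020 over the fits without 1 library, 7 of them above 0. With library sizes alone TIE1 was 0.84 on day 16, 0.62 on day 18, 0.86 on day 20 and 0.76 for the change from day 12 to day 20. Without 1 library it ran from -0.18 to 0.024 on day 16 (above 0 without UT replicate 2) and from -0.10 to 0.00047 on day 20 (above 0 without DOX replicate 1). ENG on day 20 was -0.016 with DESeq2 size factors, -0.015 with DESeq2 and -0.098 to 0.27 without 1 library (below 0 without UT replicate 2 or DOX replicate 1); on day 16 it was 0.88 with library sizes alone and -0.20 to 0.15 without 1 library (above 0 without UT replicate 2). FLT1 with library sizes alone was 0.73 on day 18, 0.063 on day 20, 0.40 for the change from day 12 to day 20 and -0.095 for the UT step to day 16; without 1 library the change ran from -1.03 to 0.14 (above 0 without UT day 20 replicate 1). APLNR on day 12 ran from -0.074 to 0.28 (below 0 without UT replicate 1 or DOX replicate 2), CDH5 on day 16 from -0.083 to 0.35 (below 0 without UT replicate 2), and CD34 in the averaged comparison from -0.0094 to 0.40 (below 0 without UT day 20 replicate 1). Over days 12 and 14, KDR was -0.61, CDH5 -0.51 and VWF -0.23. PTPRC was 0.020 with library sizes alone.

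Replicate numbers gave little sign of pairing: deviations of same-numbered libraries correlated at -0.016 to 0.195 over 55 pairs of groups (median 0.038), with 5 over 0.1. A pairing is not excluded by these values, and the replicate block raised the genes called on day 12 from 625 to 950. With the replicate block, FLT1 in the UT course lost its call (-0.90, adjusted p = 0.05).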
